A study of Mus musculus with 80 samples.

Results

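DNA methylation of E14 mouse embryonic stem cells (ESCs) was compared between serum and the first day after transfer to 2i, in 4 of the 80 samples of the series. The study followed ESCs from serum to 2i and asked how methylation is lost. E14 is an established wild-type ESC line. The serum cells grew in DMEM with fetal calf serum and LIF (2 samples), and the others had spent 24 h in serum-free N2B27 medium with LIF, the MEK inhibitor PD0325901 and the GSK3 inhibitor CHIR99021 (2 samples). No source used here says whether the 2 samples of a group came from separate cultures, so the p-values measure only the spread between these samples, which may be technical. Methylation was read by reduced representation bisulfite sequencing (RRBS), in which a restriction enzyme enriches CpG-rich fragments and bisulfite leaves modified cytosines unconverted. The regions were autosomal tiles of 500 bp that held at least 20 calls and at least 3 cytosine positions in each of the 4 samples, and 62589 tiles met this. A call is the reading of 1 cytosine in 1 sequencing read, and the level of a tile is its percent of methylated calls.

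In ESCs, DNMT3A and DNMT3B with their partner DNMT3L place new methyl groups on cytosines of CpG dinucleotides, DNMT1 copies them to the new strand after replication with the help of UHRF1, and TET proteins oxidise 5-methylcytosine to 5-hydroxymethylcytosine. Bisulfite reads both forms as methylated, so a level is their sum. Serum ESCs carry high methylation outside CpG islands, and culture in 2i is known to lower it over days. The promoters of many germline genes, which act in meiosis and in the silencing of transposons, are CpG-rich and silenced by methylation in somatic cells.

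The sequences of 3 germline gene promoters are shown because the results return to them. They are the 250 bases before the gene start from RefSeq (GRCm38.p6), 5′ to 3′ on the strand of the gene, in lower case with each CpG in capitals. Sohlh2 (chr3:55181794-55182043, plus strand) encodes a transcription factor of early germ cells, Mael (chr1:166238745-166238994, minus strand) a protein of the piRNA pathway, and Hormad1 (chr3:95559427-95559676, plus strand) a protein of the meiotic chromosome axis. The letters hold 14, 18 and 19 CpGs, respectively.
Sohlh2: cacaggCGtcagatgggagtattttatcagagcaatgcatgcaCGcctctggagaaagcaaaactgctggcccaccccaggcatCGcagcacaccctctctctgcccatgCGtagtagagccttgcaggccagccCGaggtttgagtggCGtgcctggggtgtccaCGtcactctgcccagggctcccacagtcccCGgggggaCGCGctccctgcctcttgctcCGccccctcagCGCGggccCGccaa
Mael: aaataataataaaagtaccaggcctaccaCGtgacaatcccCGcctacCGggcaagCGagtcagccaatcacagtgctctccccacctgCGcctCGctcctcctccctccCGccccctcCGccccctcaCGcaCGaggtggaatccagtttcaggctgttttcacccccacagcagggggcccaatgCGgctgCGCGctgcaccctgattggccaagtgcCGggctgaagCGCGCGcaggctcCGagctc
Hormad1: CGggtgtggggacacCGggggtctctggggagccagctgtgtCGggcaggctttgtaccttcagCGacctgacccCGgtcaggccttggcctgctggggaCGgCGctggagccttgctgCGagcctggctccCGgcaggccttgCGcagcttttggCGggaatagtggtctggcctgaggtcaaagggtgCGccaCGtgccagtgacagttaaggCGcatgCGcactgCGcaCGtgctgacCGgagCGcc
The E-box CACGTG, a palindrome that reads the same on both strands and is bound by basic helix-loop-helix factors, lies in the window from 250 bases before to 50 after the start of Mael and Hormad1 and not in that of Sohlh2. It was found in 9 of 19 germline genes with a measured promoter tile (47.4%), in 703 of 5915 genes with a measured promoter tile (11.9%) and in 2088 of 25748 autosomal genes with a promoter sequence (8.11%). A match describes these letters only.

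The serum samples held 19637120 and 19548820 calls and the 24 h samples 9581412 and 12874625, so the 24 h levels rest on fewer calls, with a median of 119 calls per tile in each serum sample and of 57 and 77 at 24 h. Counting error alone gives a level of 50% a 95% Wilson interval of 29.9% to 70.1% at 20 calls, of 37.5% to 62.5% at 58 and of 41.2% to 58.8% at 120, and calls from PCR copies or from 1 read are not independent, so these intervals cover counting error only. Cytosines of the mitochondrial genome, which is largely unmethylated, were read as methylated in 0.217% and 0.698% of calls in serum and in 0.306% and 0.248% at 24 h. RNA-seq of the same line in the same media, with 3 samples per group, was used as a check of the cell type on log2 expression values whose 75th percentile was 2.51 to 2.52. The ESC genes Pou5f1 (8.29 in serum and 8.55 at 24 h), Sox2 (7.28 and 7.25) and Nanog (6.78 and 8.33) were high, and Esrrb (5.80 and 6.38) and Zfp42 (7.70 and 6.88) were too. The endoderm genes Gata4 (-0.70 in serum and -0.12 at 24 h) and Sox17 (-2.27 and -1.07) were low but higher in all 24 h samples, and Gata6 (-0.00 and -0.23) overlapped. Of the fibroblast feeder genes, Col1a1 (2.49 and 1.89), near the 75th percentile, and Col3a1 (-2.38 and -3.62) were lower in all 24 h samples, while Col1a2 (-0.75 and -0.83) and Thy1 (0.87 and 0.92) overlapped. The part of such cells in the methylation values was not tested.

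Averaged over all tiles, methylation was higher after 24 h of 2i. The mean tile level was 35.2% and 35.8% in the serum samples and 38.3% and 37.3% in the 24 h samples, so the groups did not overlap. The group means were 35.5% ± 0.469 and 37.8% ± 0.695 (SD, n = 2 each), a difference of 2.26 percentage points. An exact two-sided permutation test gave p = 0.333, the smallest value that 2 against 2 samples allow. Over pooled calls the difference was 0.969 points. Over the single positions that each sample covered with at least 5 calls, without tiles, it was -1.95 points (24.1% and 24.7% in serum, 22.4% and 22.5% at 24 h). The direction of the mean thus differed between these ways of averaging, which differ in the cytosines, the filter and the weight of each position. The single positions were not the same set in each sample, with 1125439 and 1113625 in serum and 839536 and 966572 at 24 h. In tiles built only from positions with at least 5 calls in all 4 samples, the difference was 2.18 points. The median tile differed by 0.126 points.

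In percentage points, the difference lay mostly in tiles of intermediate methylation. When tiles were grouped by their mean over the 4 samples, which treats serum and 24 h alike, the 15439 tiles from 20% to 80% had means of 51.5% and 52.4% in serum and of 61.4% and 59.2% at 24 h. That is 51.9% ± 0.635 against 60.3% ± 1.56 (SD, n = 2 each), a difference of 8.43 points (exact p = 0.333). In 50.4% of these tiles the 24 h samples were both higher than either serum sample and in 7.91% both lower, against 25.8% and 15.3% of all tiles. The 31903 tiles under 20% moved from 2.13% and 2.79% to 3.19% and 3.00%, a difference of 0.641 points. The 15247 tiles of 80% and over had 87.8% and 88.2% in serum and 88.1% and 86.7% at 24 h, and here the groups overlapped (difference -0.607 points, exact p = 0.667).

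Finer classes placed the largest differences in percentage points in the middle of the range. Changes relative to the level were not compared between classes. In the 4325 tiles from 40% to 60% the means were 44.7% and 45.9% in serum and 57.0% and 54.6% at 24 h, a difference of 10.5 points. It was 9.71 points in the 3514 tiles from 20% to 40%, 6.66 points in the 7600 tiles from 60% to 80% and 5.45 points in the 2739 tiles from 10% to 20%. The 21966 tiles under 2% moved the other way by a small amount, with 0.512% and 1.04% in serum and 0.570% and 0.591% at 24 h, which overlapped.

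**Figure D1:**
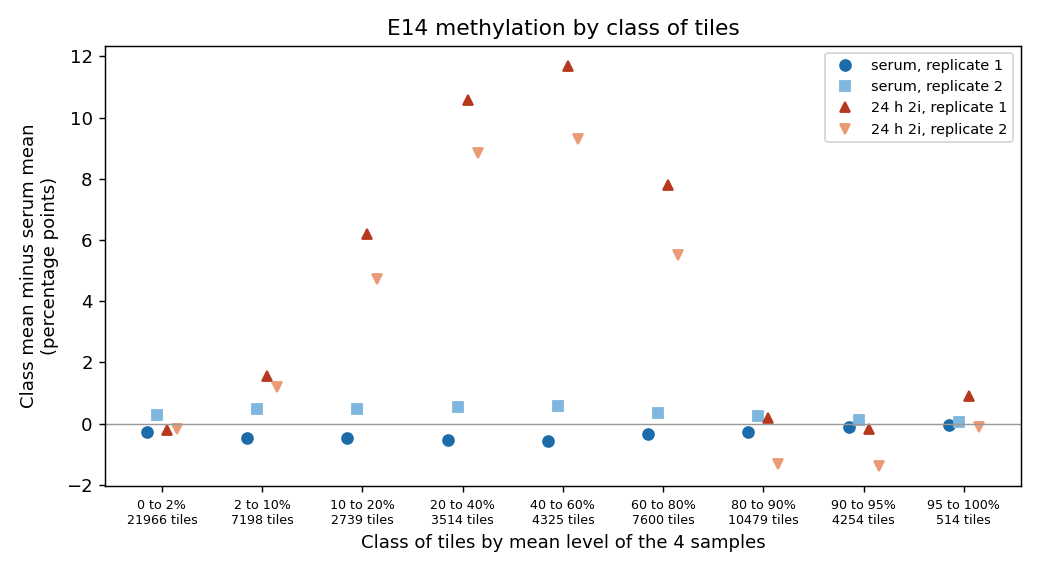
Mean methylation of each tile class in each sample, in percentage points from the serum mean of the class (y axis), for 9 classes set by the mean level of the 4 samples (x axis); each point is 1 sample. Both 24 h samples stand clearly above both serum samples from 2% to 80%, with the widest gap from 40% to 60% (10.5 points), and overlap with them below 2% and from 80% to 90%. From 90% to 95% both 24 h samples lie slightly below both serum samples (difference -0.789 points).

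CpG density went along with the size of the difference within the intermediate tiles. The 2631 tiles with 18 to 65 covered CpGs had 44.2% and 45.3% in serum and 56.4% and 54.2% at 24 h, a difference of 10.6 points. The 3601 tiles with 2 to 8 CpGs differed by 6.05 points, and the 3 groups between them by 8.02, 8.41 and 9.88 points in order of density. The densest tiles also held more calls, with a median of 64 in the first 24 h sample against 32 in the sparsest. Their serum mean was lower too, at 44.7% against 55.1% in the sparsest. The parts of calls and of serum level in this order were not tested.

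Tiles were tested one by one on their methylated and unmethylated calls with a quasi-binomial model, and a tile is called where its Benjamini-Hochberg adjusted p was under 0.05 and its group means differed by at least 20 points. Of the 62589 tiles, 1268 were called (2.03%), 1240 of them higher at 24 h (1.98%) and 28 lower (0.0447%). In all 1268 the 24 h samples both lay on the same side of both serum samples, which the rule for a call largely brings about. Over all tiles, 25.8% had both 24 h samples above and 15.3% both below. The tiles called higher had median levels of 37.1% and 38.5% in serum and of 70.2% and 67.9% at 24 h. Their median difference was 27.4 points, and 286 of them reached a mean of 80% or more at 24 h. In serum 218 of them were under 20% and 1022 from 20% to 80%. The tiles called lower had medians of 92.3% and 91.9% in serum and of 67.1% and 63.3% at 24 h, and 24 of the 28 were at 80% or more in serum.

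The 2 replicates of 24 h differed by 20 points or more in 2454 tiles (3.92%) and the serum replicates in 599 (0.957%), while the group means differed that much upwards in 2462 tiles (3.93%) and downwards in 122 (0.195%). With 2 samples a group, the calls rest on a dispersion shared between tiles. Where each tile had to rely on its own spread, where limma was run on the log2 odds, and where the calls were thinned to the depth of the shallowest sample, no tile was called, and 6001, 5861 and 6820 tiles then had an unadjusted p under 0.05, against 9177 in the reported test. The quasi-likelihood test of edgeR called 202 tiles, all of them higher and all among the 1240, and leaving out 1 of the 4 samples gave 218 to 489 higher and 1 to 11 lower calls. Such a fit leaves 1 group with a single sample, which is assumed to vary like the other group, so it is no independent support for a call.

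The 8 tiles with the largest rises went from means of 13% to 36.0% in serum to means of 69.6% to 88.0% at 24 h, on the coordinates of NCBIM37, which the RRBS data use. The largest was on chromosome 6 at 122743001 to 122743500, with 25.0% and 25.0% in serum and 82.1% and 91.7% at 24 h (28 to 96 calls, difference 61.9 points, adjusted p = 8.40e-07). All 4 of its CpG positions with at least 5 calls in each sample were higher in both 24 h samples. A tile on chromosome 4 at 109647001 to 109647500 had 18.1% and 26.9% in serum and 79.3% and 73.7% at 24 h (58 to 105 calls, difference 54.0 points, adjusted p = 9.28e-07), and 7 of 7 such positions were higher. This tile had the most calls of the 8. The tiles were chosen on these same calls, so counts of positions in them are no added support.

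A further tile on chromosome 4, at 43419501 to 43420000, rose from 10.5% and 24.3% to 79.3% and 75%. On chromosome 19 at 29747001 to 29747500 the levels were 17.6% and 8.33% in serum and 75% and 64.3% at 24 h, on as few as 20 calls. The tile on chromosome 11 at 114651001 to 114651500 had 17.0% and 21.4% in serum against 72.4% and 69.6%. That at 121116001 to 121116500 of chromosome 5 had 19.4% and 26.8% against 75% and 74.1%. One on chromosome 18 had 23.6% and 31.3% against 91.3% and 80.8%, and the 8th, on chromosome 17 at 87827001 to 87827500, covers the promoter of Stpg4, a gene with a sperm-tail PG-rich repeat, with 35.6% and 36.4% in serum against 100% and 76.0% at 24 h. Serum and 24 h did not overlap in any of the 8, as the choice of named tiles required. Each was also called by edgeR, and 4 of the 8 were called with any 1 sample left out. No genome annotation on this build was used here, so tiles outside the promoters placed below carry no gene name.

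Among called tiles, the median difference was -25.4 points in the 28 falls and 27.4 points in the 1240 rises, both with a minimum of 20 points. The extremes stood further apart, at -35.2 and 61.9 points, but the largest falls were drawn from far fewer tiles than the largest rises. The next values are of the largest falls. The best covered of the 8 largest, on chromosome 5 at 106161001 to 106161500 had 52.2% and 47.1% in serum and 18.1% and 22.4% at 24 h on 155 to 255 calls (group means 49.6% and 20.2%, difference -29.4 points, adjusted p = 1.59e-05), and all 10 of its positions with at least 5 calls in each sample were lower in both 24 h samples. These positions include both strands of the same CpGs, and the tile was chosen on the same calls, so their count is no added support. The largest fall of a called tile was on chromosome 2 at 179787501 to 179788000. It went from 100% and 100% in serum to 51.6% and 78% at 24 h, on 21 to 41 calls. On chromosome 16 at 14319501 to 14320000 the tile had 85.1% and 94.6% in serum and 45.0% and 67.9% at 24 h. The tile of chromosome 6 at 66455501 to 66456000, which was intermediate in serum, had 66.7% and 71.3% against 35.7% and 37.5%.

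Each of the other 4 named falls had a serum mean above 85%. Those on chromosome 17 (27601001 to 27601500) and chromosome 15 (29973001 to 29973500) had 57.7% and 50.0%, and 48.1% and 61.5%, at 24 h. In those on chromosome 4 (30813001 to 30813500) and chromosome 2 (126597001 to 126597500) the 24 h samples stood apart, at 69.7% and 42.9% and at 90% and 50.0%. None of the 8 falls was called by edgeR, and only the tile on chromosome 5 was called with any 1 sample left out. The tile chosen for a small difference, on chromosome 13 at 42279501 to 42280000 had 50.3% and 51% in serum and 52.2% and 51.7% at 24 h on 92 to 179 calls (adjusted p = 0.953). Its difference was 1.32 points.

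Most called tiles stood alone. Of the runs of higher tiles, 1142 held 1 tile, 43 held 2 and 4 held 3, and the 28 lower tiles were all single. These counts do not separate tiles whose neighbours were not measured from tiles whose neighbours were measured and not called. Of the 4 runs of 3 tiles, the one with the largest mean rise, on chromosome 1 from 34489501 to 34491500, had means of 22.2% and 21.9% in serum and of 64.3% and 51.6% at 24 h over 3 tiles. On chromosome 12 from 92885501 to 92887000 the 3 tiles had means of 48.0% and 46.3% against 78.8% and 74.5%. On chromosome 14 from 68741501 to 68743500, where 3 of 4 tested tiles were called, the means were 6.52% and 12.2% against 33.3% and 41.7%.

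Promoters were placed on the files without any conversion of coordinates, by matching the spacing of CpGs in RefSeq promoter sequences to the spacing of covered cytosines, which gave 5678 promoter tiles of 5915 genes. Most were unmethylated in both media: the 5139 promoter tiles with a mean under 5% had 0.596% and 1.17% in serum and 0.702% and 0.726% at 24 h, and none was called. The 177 promoter tiles from 20% to 80% had 41.9% and 43.7% in serum and 54.9% and 52.4% at 24 h, a difference of 10.9 points, and 24 of them were called higher (13.6%). In the other tiles of that range the difference was 8.40 points and 7.62% were called higher. Promoter tiles of that range held more calls (median 116 against 82 in the first serum sample) and more CpGs (median 16 against 12). Their serum mean was lower (42.8% against 52.0%), and the part of these differences in the contrast was not tested. In all, 25 promoter tiles were called (0.440%, against 1.98% of all tiles), all of them higher. The 24 h samples were both higher than either serum sample in 732 of the 5678 (12.89%) and both lower in 1078 (18.99%). Over all tiles these shares were 25.8% and 15.3%. In the promoter tiles under 5%, where the group means overlapped, they were 8.87% and 20.3%. In those from 20% to 80% they were 58.8% and 6.78%.

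Germline genes were among the promoters that rose. Of a list of 48 germline genes, 19 had a measured promoter tile, 20 tiles in all, and 6 of these were called higher and none lower. In 15 tiles the lower 24 h sample still exceeded the higher serum sample, and in 1 both 24 h samples lay below. The median difference of the 20 tiles was 15.4 points, with median levels of 37.2% and 38.4% in serum and of 63.5% and 60.7% at 24 h, while the median over all promoter tiles was -0.131 points. Most of these tiles were intermediate, and the 177 promoter tiles from 20% to 80% had a median difference of 10.2 points, with 58.8% in which both 24 h samples were higher and 13.6% called. The list was drawn up after values of these samples had been seen, so its count is not independent evidence.

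Among the regulators of germ cell identity and the piRNA pathway, the Sohlh2 promoter tile (chromosome 3, 54985501 to 54986000) had 19.9% and 18.3% in serum and 54.3% and 57.5% at 24 h, on 73 to 202 calls. It was called (difference 36.8 points, adjusted p = 1.33e-05), as it was by edgeR and with any 1 sample left out. The Mael tile (chromosome 1, 168168501 to 168169000) had 24.0% and 24.2% in serum and 46.9% and 49.5% at 24 h on 243 to 629 calls, the most of the called germline tiles (difference 24.1 points, adjusted p = 1.31e-06). It was also called with any 1 sample left out, but not by edgeR. The tile of Fkbp6, a co-chaperone of the piRNA pathway, was already mostly methylated and rose from 63.6% and 69.3% to 87.1% and 89.6% (adjusted p = 0.00498).

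Single CpGs were followed in the same windows around the starts of the 3 promoters printed above. In the Sohlh2 window, all 8 CpGs with at least 5 calls in each sample were higher in both 24 h samples, on as few as 5 calls at a position. The CpG 14 bases before the start had 4.17% and 8.33% in serum and 30.4% and 61.5% at 24 h, and the CpG 25 bases before it had 50.0% and 50.0% against 66.7% and 75%. In the Mael window 8 of 10 CpGs were higher in both 24 h samples, and at the other 2 the groups overlapped. In the Hormad1 window 12 of 16 were higher and none was lower in both. Of the CpGs whose C lies before the start, 6 of 6 in Sohlh2, 6 of 8 in Mael and 11 of 15 in Hormad1 were higher in both 24 h samples. In Mael and in Hormad1 these counts include a CpG whose C is the last printed letter and whose G lies past it. It is not among the capitals, and it was higher in both 24 h samples in each gene. Neighbouring CpGs are read from the same molecules, so they are not replicates.

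**Figure D2:**
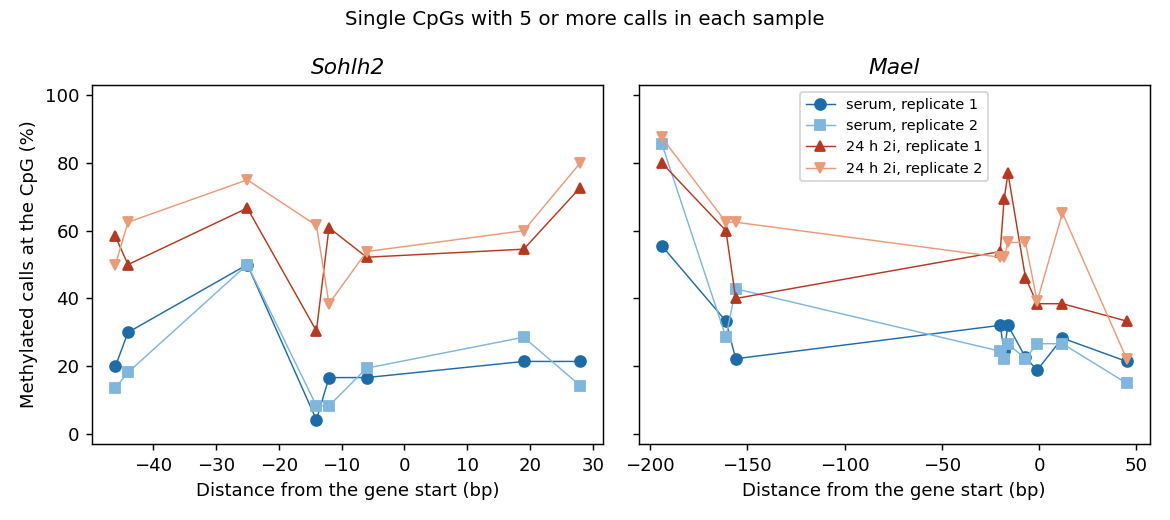
Percent of methylated calls at single CpGs of the Sohlh2 and Mael promoters (y axis) against the distance from the gene start in bp (x axis); each symbol is 1 sample, and lines only join the CpGs of a sample. At all 8 Sohlh2 CpGs and 8 of 10 Mael CpGs both 24 h samples lie above both serum samples.

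Of the genes of the meiotic chromosome axis and cohesin, Hormad1, Hormad2 and Smc1b had a called promoter tile. The called Hormad1 tile (chromosome 3, 95363501 to 95364000) had 32.6% and 38.8% in serum and 62.3% and 53.6% at 24 h (adjusted p = 0.00558), and its second tile, 500 bp before it, had 58.5% and 57.6% against 71.4% and 74.6%, a difference of 14.9 points that stayed under the 20 required. The Hormad2 tile (chromosome 11, 4341001 to 4341500) rose from 35.4% and 29.6% to 62.4% and 61.4% (adjusted p = 0.000228). The tile shared by Smc1b, a subunit of meiotic cohesin, and its neighbour Ribc2 (chromosome 15, 84962001 to 84962500) rose from 13.1% and 23.1% to 68.8% and 60% (difference 46.3 points, adjusted p = 2.15e-05). With each of the 4 samples left out in turn, Smc1b was called in 3 fits, Hormad2 in 2, and Hormad1, like Fkbp6, in 1, and of these tiles only that of Smc1b was called by edgeR. Only a part of that tile belongs to the promoter: in the window from 250 bases before to 50 after the Smc1b start the levels were 3.18% and 4.01% in serum and 12.3% and 9.15% at 24 h.

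The synaptonemal complex genes Sycp1, Sycp2 and Sycp3 were not called. Sycp1 had 68.2% and 62.7% in serum and 81.8% and 80.6% at 24 h, Sycp2 31.1% and 33.5% against 50.0% and 51.4%, and Sycp3 23.9% and 30.9% against 40.2% and 43.6%. In none of these 3 did serum and 24 h overlap. Their differences of 15.8, 18.4 and 14.5 points were under the 20 required, and in Sycp2 (adjusted p = 0.106) and Sycp3 (adjusted p = 0.116) the test also missed its threshold. Slc25a31, a germ cell ADP/ATP carrier, differed by 19.7 points (56.3% and 41.5% against 67.7% and 69.4%). The promoter tiles of Ddx25, Dmc1 and Pld6 were under 5% in every sample, and those of Dazl, Dpep3, Tdrd9 and Tex101 above 80% in every sample.

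The tile of Dazl had 96.2% and 94.1% in serum and 93.4% and 92.6% at 24 h, and is the 1 germline tile in which both 24 h samples were lower (adjusted p = 0.788). In the window from 250 bases before to 50 after the Dazl start, which only partly overlaps that tile, the levels were 57.1% and 64.6% in serum and 73.5% and 90% at 24 h on 49 to 79 calls, and its 7 CpGs covered in every sample all lay after the start, with 4 of them higher in both 24 h samples. Asz1 was not separated, with 62.6% and 64.6% in serum and 47.1% and 71.7% at 24 h.

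**Figure D3:**
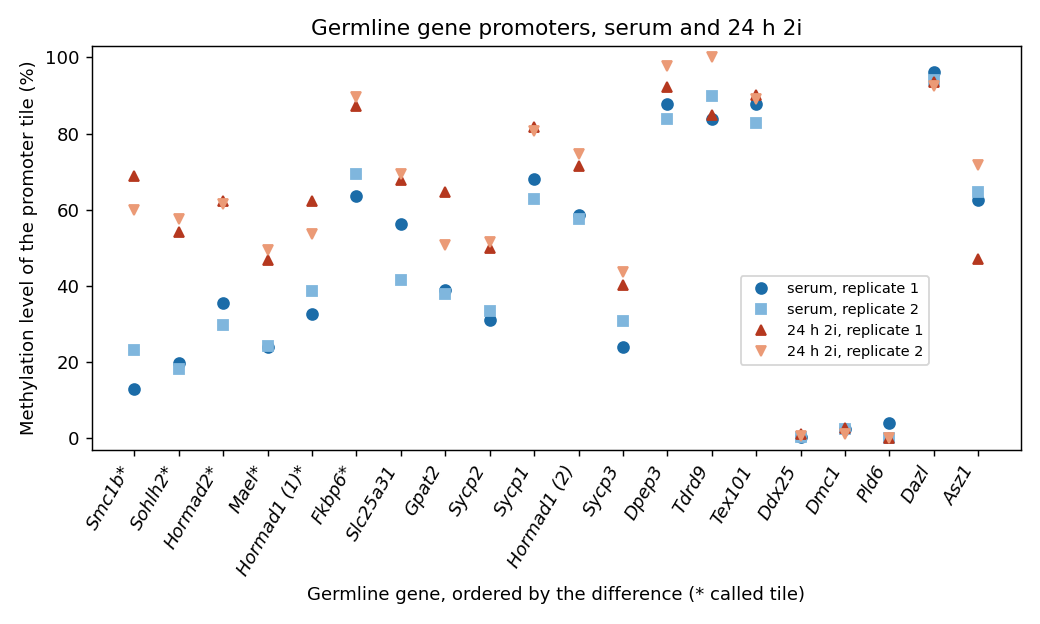
Methylation level of the promoter tile in percent (y axis) for the 19 measured germline genes, ordered by the difference between the group means (x axis); each point is 1 sample, and a star marks a called tile. The 6 called tiles stand among those at the left, while the 3 tiles near 0% differed by 2.08 points or less.

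The other called promoter tiles belong to genes of varied function. Man2b2, a lysosomal mannosidase, rose from 3.33% and 17.5% to 42.4% and 42.7%. Sphk1, which makes sphingosine 1-phosphate, rose from 16.0% and 17.3% to 44.7% and 33.3%. Arhgef2, an activator of RhoA, had 24.6% and 34.7% in serum and 72.5% and 75.9% at 24 h, and Cspg4, a cell surface proteoglycan, 17.6% and 26.8% against 47.4% and 66.7%. The tile of Tmem233 (30.1% and 31.4% against 62.5% and 59.6%) was called with any 1 sample left out, as were those of Sohlh2, Mael and D130017N08Rik, 4 of the 25. By edgeR 8 of the 25 were called.

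None of the 19 promoter tiles of 3 further gene lists was called, which says little where 0.440% of all promoter tiles were. The 4 pluripotency genes measured (Klf2, Klf4, Tfcp2l1 and Lin28a) and the 8 measured genes of the methylation machinery had promoter tiles with a mean under 5%, and their lists had median differences of 0.0679 and -0.255 points. Of 26 imprinted genes, 8 were measured in 7 tiles, with a median difference of -0.159 points. The tile shared by Peg3 and Usp29 had 35.4% and 49.1% in serum and 48.1% and 43.8% at 24 h, and that shared by Plagl1 and Hymai 88.5% and 88.0% against 94.7% and 82.5%. A Gnas tile was at 23.2% and 13.4% in serum and at 11.9% and 4.55% at 24 h, lower in both but not called (adjusted p = 0.176).

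RNA of the called germline genes was not lower at 24 h. Expression here is a log2 value (mean ± SD, n = 3 each), and it was not tested. Fkbp6 went from 1.09 ± 0.161 in serum to 2.75 ± 0.122 at 24 h, Smc1b from 0.87 ± 0.126 to 1.94 ± 0.285, Hormad1 from 2.14 ± 0.268 to 3.02 ± 0.418, Hormad2 from -0.40 ± 0.263 to 0.35 ± 0.160 and Sohlh2 from 1.63 ± 0.0944 to 2.04 ± 0.169. In these 5 of the 6 genes all 24 h samples lay above all serum samples, as they did in 21.0% of 25841 genes. Mael overlapped between the groups, at 3.23 ± 0.255 and 3.30 ± 0.280. Sycp3, whose promoter tile differed by 14.5 points without a call, went from 3.16 ± 0.261 to 6.08 ± 0.704. Sycp1 overlapped between the groups, at 0.51 ± 0.235 and -0.19 ± 0.707, and Sycp2 was lower in all 24 h samples, at -1.62 ± 0.117 and -2.30 ± 0.446.

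RNA was lower at 24 h for 8 of 9 listed genes of the methylation machinery. In these 8 all 24 h samples lay below all serum samples, as they did in 18.6% of all genes. The de novo enzymes Dnmt3a (3.04 in serum and 0.85 at 24 h) and Dnmt3b (6.31 and 2.98) and their partner Dnmt3l (6.62 and 3.02) were among them, as were Tet1 (6.15 and 3.24), Tet2 (4.23 and 1.65), Tet3 (0.88 and -0.82), Dnmt1 (5.71 and 4.88) and the DNA glycosylase Tdg (3.58 and 3.17). Uhrf1 overlapped between the groups, at 5.91 and 5.99. These are means of 3 samples on the log2 scale and were not tested. The study describes Dnmt1, Uhrf1, the Tet genes and Tdg as transcribed at similar levels during the conversion. Of these, only Uhrf1 overlapped here, and the differences of Dnmt1 and Tdg were smaller than those of the Tet genes. The values here are of serum and 24 h alone, and RNA of other times was not used.

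The mean rise was not seen in the wild-type control of the UHRF1 experiment, whose background strain the labels also give as E14. It has 1 usable serum sample and 2 at 24 h, and it covered 14183 of the intermediate tiles. There its mean level was 76.6% in serum and 70.1% and 70.3% at 24 h, a difference of -6.40 points, where E14 went from 51.7% to 60.3% in the same tiles. In 1210 tiles called higher in E14 the control had 74.1% in serum and 65.8% and 66.2% at 24 h. Both of its 24 h samples lay below its serum sample in 863 of them (71.3%) and above it in 116 (9.59%), against 67.7% and 12% of the intermediate tiles and 56.3% and 14.2% of all 59441 tiles covered. Of the 6 called germline tiles, 3 were higher in both 24 h samples of this line, namely those of Mael (39.4% in serum, 42.9% and 46.3% at 24 h), Hormad1 (75.1%, 78.7% and 79.3%) and Fkbp6 (84.5%, 94.1% and 98.0%). The other 3 were lower, those of Sohlh2 (65.2%, 63.6% and 63.8%), Hormad2 (68.6%, 67.8% and 63.4%) and Smc1b (64.9%, 56.0% and 54.1%). In the intermediate tiles and in those called higher in E14, the serum means of the wild-type lines differed by more than the change within either line. With 1 serum sample the difference in direction was not tested, and whether the 24 h samples of E14 differ from serum for a technical reason cannot be told apart from an effect of 2i with these samples.

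In UHRF1 KO ESCs, in which Uhrf1 was deleted with a tamoxifen-inducible Cre before the experiment, 2670 intermediate tiles had 55.4% and 56.3% in serum and 42.9% and 42.5% at 24 h. In the 400 tiles called higher in E14 that they covered, the means were 52.2% and 53.5% against 39.2% and 38.5%.

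**Figure D4:**
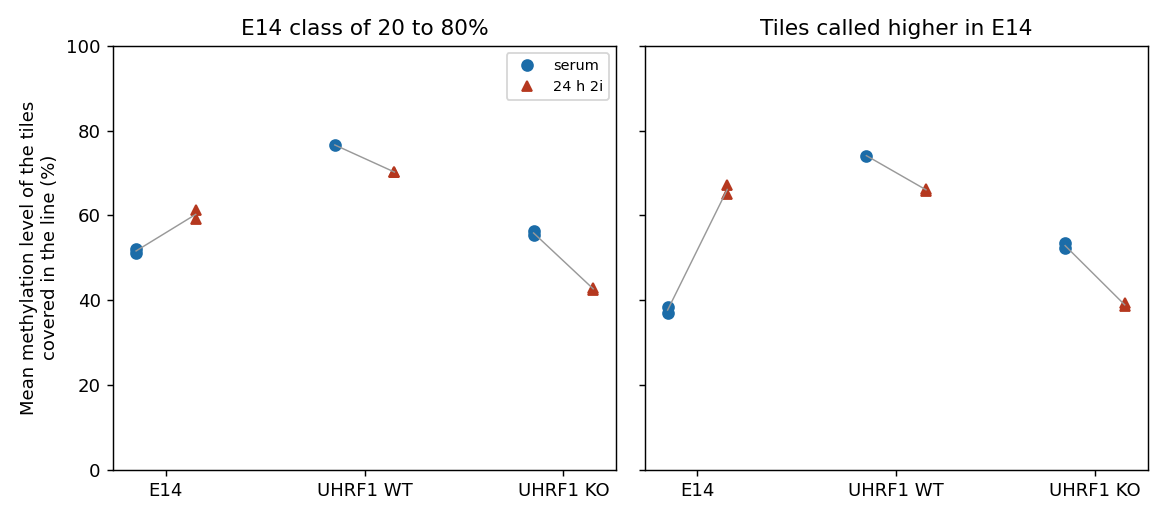
Mean methylation level in percent (y axis) in serum (circles) and at 24 h of 2i (triangles) for E14, UHRF1 WT and UHRF1 KO (x axis), in the intermediate tiles of E14 (left; 13006, 14183 and 2670 tiles) and the tiles called higher in E14 (right; 1170, 1210 and 400 tiles); each point is 1 sample, and lines join the group means. E14 moved up while both other lines moved down, in UHRF1 WT from 76.6% to 70.1% and 70.3% in the intermediate tiles.

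In the third pair of lines, of the mixed strain C57/129/FVB and sampled in serum but not at 24 h, the 1142 covered tiles called higher in E14 had 24.8% and 24.8% in TET WT and 56.8% and 56.8% in TET TKO, which lacks the 3 Tet genes. Over all 53553 tiles covered the values were 25.0% and 25.0% against 34.7% and 34.8%, and over the intermediate ones 37.3% and 37.3% against 61.5% and 61.7%. The Sohlh2 tile had 23.5% and 24.1% in TET WT and 33.3% and 46.5% in TET TKO. These samples are from other cells than E14, and their values are given side by side.

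The higher levels of 24 h were not present at later times. Over 1170 tiles called higher and covered in all 12 E14 samples, the means were 36.9% and 38.4% in serum and 67.2% and 65.0% at 24 h. They then lay below serum, with 32.6% and 32.8% at 48 h, 34.7% and 34.5% after 72 h, 22.1% and 22.3% after 96 h and 9.90% and 10.5% by 168 h. The 13006 intermediate tiles had 51.2% and 52.0% in serum, 61.4% and 59.1% at 24 h, then 43.5% and 43.7% by 48 h and 17.6% and 17.7% by 168 h. The 23 tiles called lower had 85.7% and 85.4% in serum and 60.7% and 59.2% at 24 h, then 72.8% and 71.3% by 48 h, 51.7% and 53.5% after 72 h, 61.9% and 60.6% after 96 h and 38.1% and 37.0% by 168 h. The tiles were chosen on the serum and 24 h samples, and every later time is set against the same serum samples, so these values are a description.

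**Figure D5:**
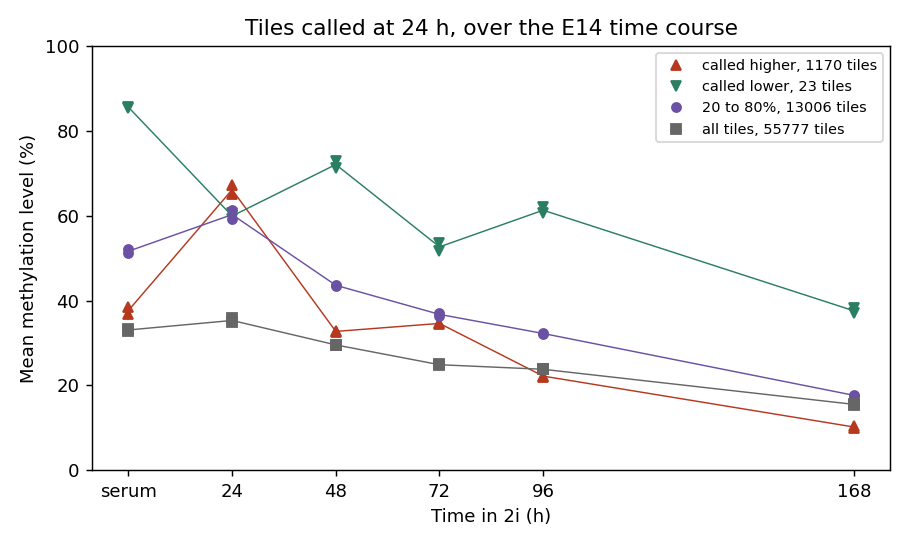
Mean methylation level in percent (y axis) of all tiles, the intermediate tiles and the tiles called higher or lower at 24 h, in E14 serum and at 24 to 168 h of 2i (x axis, h, serum drawn at the origin); each point is 1 sample, and lines join the means of 2. The tiles called higher peak at 24 h, at 67.2% and 65.0%, and lie at 9.90% and 10.5% at 168 h.

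Bisulfite sequencing of chromatin bound by an antibody to H3K9me2, a repressive histone mark, and of its input gave a separate reading of the same tiles in serum and in 2i, which the study describes as long-term 2i. Tiles with more than 200 calls were left out of these pools. In tiles called higher at 24 h, the pooled calls of the input were methylated in 43.8% and 42.6% in serum and in 13.1% and 12% in 2i. In the bound fraction the values were 65.8% and 65.3% in serum and 24.2% and 23.6% in 2i. In the intermediate tiles the bound fraction had 72.2% and 72.7% in serum, against 55.6% and 53.1% of the input, so the bound fraction was more methylated than the input in both sets.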

How the data were processed

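RRBS libraries of the 4 E14 samples were grouped by their labels. For each cytosine position on NCBIM37 the authors deposited a percent and 2 counts, of methylated and of unmethylated calls, as Bismark writes them. The submitters' processing notes name Bismark 0.12.3, Bowtie2, Trim Galore 0.3.5 and TopHat2 2.0.11, without saying which data each served. RNA-seq values were deposited by the authors as log2 expression per gene. The members, gene lists and tests were chosen with earlier results of these data known.

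Calls were summed per 500-bp tile in Python 3.11.15. Each tile with both kinds of call was fitted with a quasi-binomial logistic model in R 4.3.3, with the dispersion moderated by squeezeVar of limma 3.58.1 (prior degrees of freedom 34.8, prior dispersion 1.50, from tiles with at least 20 calls of each kind), and a quasi-likelihood F test. The Benjamini-Hochberg adjustment ran over all 62589 tiles. Class means were compared by exact permutation over samples. On simulated calls for the same 62589 tiles, of which 200 were changed, the test recovered 16 of 100 changes of 20 points, 29 of 50 of 30 points and 44 of 50 of 40 points, with 0 false calls. The simulation gave every tile the same spread and held no difference between libraries, so its 0 false calls do not cover a technical shift. All its changes were rises, set in tiles of low to intermediate level, so it does not cover falls. Changes of 20 points were often missed in it, and 21 of 100 were recovered where no minimum difference was required. The parts of depth and sample number in this were not tested.

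Named tiles are the 8 largest rises and falls among called tiles with both 24 h samples on the same side, the same sign and at least 20 points over positions shared by the 4 samples, and at most 20 times the median number of calls, then 3 runs a direction with gaps of at most 1000 bp and 1 tile without a difference. The rule left 1222 of 1240 and 27 of 28 tiles to choose from. Promoter windows reach from 250 bases before to 50 after the RefSeq start. They were placed by CpG spacing on the same chromosome, with at least 6 CpGs and 50% of the CpGs covered, and a tile had to overlap a window by 150 bp. Of 17846 sequences searched, 8491 had 1 site and 8461 were used, and 97% of neighbouring pairs had equal spacing in both builds. The genes Hormad1, Smc1b and the other list members were named by symbol. The alternatives tried were other tests (edgeR 4.0.16, limma), filters, tile widths, scalings and samples left out. The second serum file of UHRF1 WT, with 6 positions, was not used. A fit with the replicate number as a block was run as an alternative.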

Additional observations from a re-analysis of the deposited data

Results flagged for a closer look

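The difference between serum and 24 h of 2i had opposite signs in different lines. In the E14 tiles of 20% to 80% that the other lines covered, it was -6.40 points in UHRF1 WT (1 serum sample, 2 at 24 h, 14183 tiles), where E14 had 8.59 points in the same tiles, and -13.2 points in UHRF1 KO (2 samples each, 2670 tiles), where E14 had 10.4 points. In the tiles called higher in E14 it was -8.06 points in UHRF1 WT and -14.0 points in UHRF1 KO, over the 1210 and 400 tiles these lines covered. Every 24 h sample of E14 lay above both E14 serum samples and every 24 h sample of the other lines below their serum samples. This difference between lines was not tested, and it was noticed because all samples of one line moved one way and all samples of the other lines the opposite way. The tiles were chosen on the E14 samples, so the size of the E14 difference in them is a description. With these samples a technical difference of the E14 libraries at 24 h cannot be told apart from an effect of 2i.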

How the results depend on the processing

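The rise in tiles of 20% to 80% had the same direction under every alternative run for this class, and leaving out 1 sample gave 7.33 to 9.53 points. Pooled calls and single positions without tiles were not run for this class. The difference in the mean was 0.969 points over pooled calls and -1.95 points over each sample's own single positions without tiles. It was 2.18 points in tiles of positions with 5 or more calls in all 4 files, and 1.77 to 2.75 with 1 sample left out. Grouping by serum alone gave 1.14 points under 20% and -1.98 points at 80% and over, and with the class and the change taken from different serum replicates these were 1.07 and -1.29 points. At 80% and over the difference was 0.167 points with at least 50 calls per tile and -1.31 to 0.0958 with 1 sample left out, and under 20% it was 0.308 to 0.974.

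The number of called tiles depended on the test. By edgeR 202 were called (202 higher, 0 lower, 6887 with an unadjusted p under 0.05). By limma on the log2 odds 0 were called (0 higher, 0 lower, 5861 unadjusted), without moderation of the dispersion 0 (6001 unadjusted) and with calls thinned to the shallowest file 0 (6820 unadjusted), where the prior degrees of freedom fell to 3.23. On simulated calls limma recovered 0 of 50 changes of 40 points and edgeR 40 of 50. At least 50 calls per tile left 676 (672 higher, 4 lower) of 33888 tiles tested. With no minimum difference 2054 were called (1983 higher, 71 lower). The lower calls were 43 with a minimum of 10 points and 15 over positions with 5 or more calls in all 4 files. Of the alternatives added after seeing the data, at least 5 positions per tile gave 10 lower calls and a prior from all tiles with both kinds of call gave 9. Leaving out 1 sample gave 220 to 490 calls, 218 to 489 of them higher and 1 to 11 lower. Such a fit has 1 group with a single sample, assumed to vary like the other. The fewest, 220, came without serum replicate 1, followed by 255 without 24 h replicate 2, 415 without 24 h replicate 1 and 490 without serum replicate 2. The cause was not tested. Centring on equal overall log odds gave 892 higher and 30 lower calls.

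The replicate numbers did not pair the samples (correlation of same-numbered deviations 0.000564 over all tiles), and a fit with the replicate block called 1410 tiles (1378 higher, 32 lower), 1257 of them among the 1268. The tile at 42279501 of chromosome 13 had -0.673 points over positions with 5 or more calls in all 4 files. Of the other values of single tiles and lists, 158 kept their side and direction and 100 were no longer past the threshold.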

Other observations

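Some values lie outside the comparisons above. The share of mitochondrial calls read as methylated was 0.698% in serum replicate 2 and 0.217% to 0.306% in the other 3 samples. Among chromosomes, the share of called tiles ran from 1.46% on chromosome 14 to 2.62% on chromosome 5.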
